A study of Mus musculus with 19 samples.

Results

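Tumours that arose from K5 cells, in mice of genotype K5:BRAFV600E, were compared with normal skin of genotype WT. The samples were chosen by their titles and came to 9 of the 19 in the series, 5 K5 tumours and 4 normal skins, and tumours of K14 origin were left out. The question was which transcripts differ between a squamous tumour started in basal keratinocytes by an activated BRAF kinase and the skin such cells come from. K5 tumours 2 to 5 alone were also set against the same skin, because K5 tumour 1 may have been sequenced in another batch. That check is given for the overall counts and for some gene lists. K5 tumour 1 also stood apart in several gene groups.

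All 9 samples came from female mice, which per the study's methods were kept on a C57BL/6J background. In the K5 tumours a tamoxifen-activated Cre recombinase driven by the Krt5 promoter switched on BRAFV600E, a kinase locked in its active form, in mice of 7 to 20 weeks per the labels, and per the methods 4-hydroxytamoxifen was applied to the shaved back. The tumours were labelled squamous cell carcinoma, and the normal skin came from control littermates, for which a treatment was not given in the sources used here. The Krt5 promoter is active in basal cells of epidermis, hair follicles and glands alike, so the cell that started each tumour is not fixed by the Cre line. RNA was taken from whole fresh frozen tissue, so each library mixed tumour keratinocytes with stroma and blood cells, and each skin library mixed epidermis with hair follicles, glands, dermis, fat and the thin muscle sheet beneath. In such bulk samples, fewer cells of a type and less RNA per cell cannot be told apart.

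The interfollicular epidermis is renewed by basal keratinocytes, which carry keratins K5 and K14, sit on laminin and integrins, and change to keratins K1 and K10 as they move up and build the cornified envelope. BRAF passes signals from RAS to the kinases MEK and ERK, and ERK in turn raises its own phosphatases, the DUSP family, and the AP-1 factors of the FOS and JUN families. Wounded epidermis switches to keratins K6, K16 and K17 and releases alarmins, growth factors of the epidermal growth factor (EGF) family and cytokines.

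Each library held between 45715309 and 72609771 estimated counts, and levels are given as counts scaled to a common library size (CPM), with sizes corrected by the TMM method over the 9 libraries. The first principal component carried 72.1% of the variance and separated the K5 tumours from the skins. K5 tumour 1 listed 6623 genes at 0, against 9837 to 10882 in K5 tumours 2 to 5 and 3242 to 3670 in skin. Its summed level of 15 HOX genes was 291 CPM, against 16.6 to 35.5 CPM in the other K5 tumours, and its 11 melanocyte genes summed to 332 CPM, against 29.9 to 70.6 CPM. The skins also differed among themselves, with fibroblast genes at 5091 and 1874 CPM in skin 1 and 2 but 19160 and 26720 CPM in skin 3 and 4. RNAs that carry no poly(A) tail were far higher in skin, with the small nuclear 7SK RNA (Rn7sk) at 3.04, 8.78, 13, 7.28 and 13.1 CPM in the K5 tumours and 1542, 2371, 1745 and 2068 CPM in the skins. The labels give poly(A) libraries and the same 2 sequencing sites for all 9 samples. The study's methods name the second site, with depletion of ribosomal RNA, for Ivl tumours with and without SOX2 only, which would leave K5 tumours and skin with a shared preparation, but neither source assigns single libraries, and the part of library preparation in these values was not tested. The table was adjusted by the authors for batches sequenced at different times. The smaller batch held 4 libraries, the size of the skin group, of the K14 group and of the set named next. Over K5 tumour 1 and Ivl tumours 1 to 3, a set taken from earlier results of these data, 96.6% of 13954 genes had a mean level that differed by under 0.1 log2 from their mean in the other 15 libraries. For the 4 skins the share was 6.39%, and for the 4 K14 tumours 21.1%. The part of the adjustment in the values of K5 tumour 1 was not tested. The study describes a solitary back tumour per mouse in the K5 model, while the labels name no animal for tumour or skin, so p-values measure the spread between these samples.

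Of 17864 protein-coding genes tested, 10592 (59.3%) passed an adjusted p of 0.05 in edgeR's quasi-likelihood test, 5585 of them (31.3%) higher and 5007 (28.0%) lower in K5 tumours. The values of the 5 tumours and the 4 skins did not overlap for 9016 genes (50.5%), 5046 (28.2%) with every tumour higher and 3970 (22.2%) with every tumour lower. At an adjusted p under 0.01 and a log2 fold change beyond 2 in size, 2578 genes (14.4%) differed. Of these 897 genes (5.02% of those tested) were higher and 1681 (9.41%) lower. The median log2 fold change of all protein-coding genes tested was -0.0633. With K5 tumours 2 to 5, 10748 of 17832 genes (60.3%) passed, 10042 of them also called with all 5 tumours, and 0 of these changed direction. On the large differences, K5 tumour 1 reached a median of 106% of the mean rise and 103% of the mean fall in log2 CPM, against 93.4% to 106% for the other tumours. These genes were called with K5 tumour 1 in the fit, so the shares cannot show whether it differs from the others. K5 tumour 1 lay between the other K5 tumours and skin for 225 of the raised and 263 of the lowered genes. It lay inside the skin range, with the others outside, for 7 and 10. With so many genes called, the counts below are to be read against 31.3% higher and 28.0% lower.

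**Figure D1:**
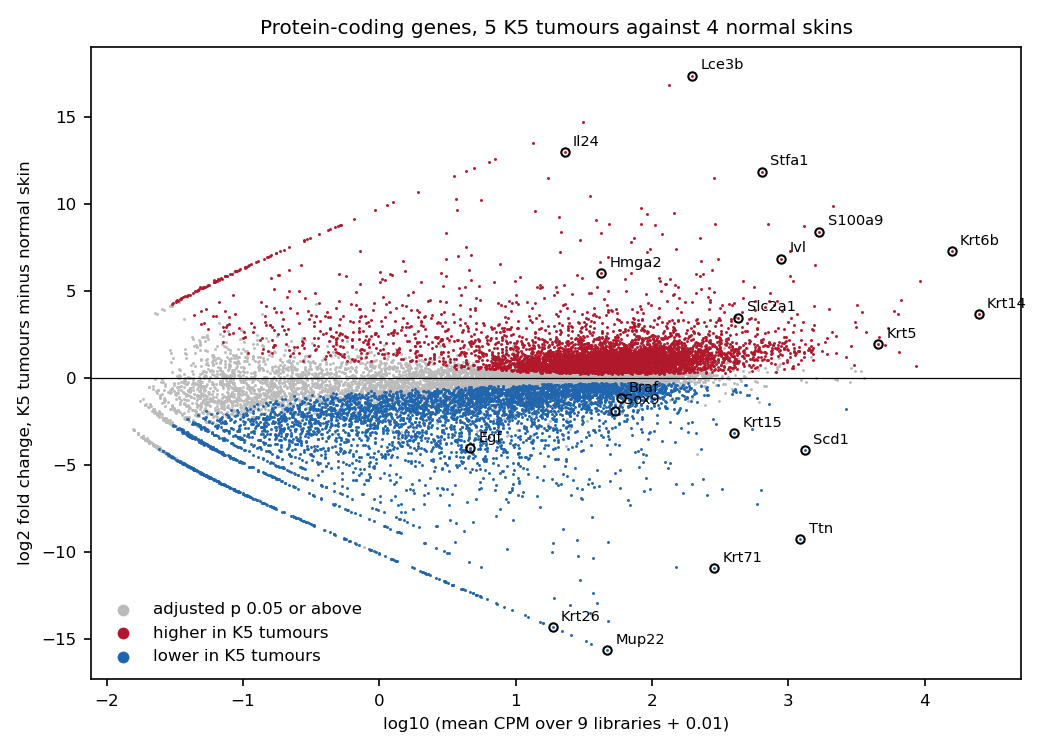
Each point is a protein-coding gene, with its mean level over the 9 libraries (x axis, log10 CPM) and its log2 fold change between K5 tumours and normal skin (y axis), red or blue where the edgeR adjusted p is under 0.05. Krt14 and Krt6b lie far right among the raised genes, Ttn and Scd1 among the lowered, and the diagonal streaks at the edges are genes near 0 in every library of 1 group, whose fitted fold depends on the prior count.

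The basal layer programme was raised. Keratin genes together took 9.03% to 10.1% of the counts in the tumours and 1.78% to 2.1% in the skins, so the libraries labelled squamous cell carcinoma held the keratins of squamous epithelium. Krt14 (ENSMUSG00000045545, chr11:100203162-100207548 on GRCm38, minus strand) lay at 52138, 36654, 40898, 40844 and 40336 CPM in K5 tumours 1 to 5. Krt14 in skin 1 to 4 was at 2119, 4088, 2692 and 4248 CPM. Krt5, which pairs with keratin 14 in basal cells and whose promoter drove the Cre, lay at 6039, 7670.4, 6552, 6997 and 6710.4 CPM in K5 tumours 1 to 5. Krt5 in skin 1 to 4 was at 1203, 2422, 1358 and 1975 CPM. No tumour overlapped the skins for either gene, and the rise was larger for Krt14 (log2 fold change 3.68 ± 0.26 SE, edgeR adjusted p = 4.21e-06) than for Krt5 (log2 fold change 1.97 ± 0.22 SE, edgeR adjusted p = 4.39e-05). Of 15 genes of the basal layer and its anchoring hemidesmosomes, 12 rose and 2 fell, with a median log2 fold change of 1.91. With K5 tumours 2 to 5, 12 rose and 3 fell, the added fall being Plec (log2 fold change -0.8001, edgeR adjusted p = 0.00167). Col17a1, the collagen of the hemidesmosome, rose as well (log2 fold change 1.53 ± 0.32 SE, edgeR adjusted p = 0.00231). The 2 that fell with all 5 tumours were the linker Dst (log2 fold change -0.99 ± 0.24 SE, edgeR adjusted p = 0.00492) and Krt15, a keratin of resting basal and follicle stem cells. Krt15 stood at 29.4, 174, 88.0, 90.8 and 57.1 CPM in K5 tumours 1 to 5. Krt15 in skin 1 to 4 was at 339, 1454, 420.0 and 938 CPM, with every tumour below every skin (log2 fold change -3.17 ± 0.58 SE, edgeR adjusted p = 0.00158).

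Keratins of wounded epidermis rose with them. Krt6b, which is hardly used in resting interfollicular epidermis, lay at 42292, 22096, 26067, 22976 and 27611 CPM in K5 tumours 1 to 5. Krt6b in skin 1 to 4 was at 138, 152, 131 and 289.7 CPM, with every tumour above every skin (log2 fold change 7.31 ± 0.39 SE, edgeR adjusted p = 1.20e-06). Its partner Krt16 lay at 15333, 15221, 17842, 15919.8 and 16886 CPM in K5 tumours 1 to 5. Krt16 in skin 1 to 4 was at 203, 247, 241 and 659 CPM (log2 fold change 5.59 ± 0.40 SE, edgeR adjusted p = 4.88e-06). Skin 4 was the highest skin for both genes and still lay far below the lowest tumour. Krt6a (log2 fold change 4.48 ± 0.43 SE, edgeR adjusted p = 2.22e-05) and Krt17 (log2 fold change 2.68 ± 0.41 SE, edgeR adjusted p = 0.000414) rose too, which made 4 of the 8 keratins in the list. The keratins of simple epithelia behaved otherwise. Krt19 fell (log2 fold change -2.83 ± 0.46 SE, edgeR adjusted p = 0.000509), while Krt8 (0.0281 to 0.852 CPM in tumours, 0.637 to 3.74 CPM in skins), Krt18 (1.21 to 8.96 and 0.262 to 4.96 CPM) and Krt7 (0.376 to 3.48 and 0.886 to 1.66 CPM) did not pass the test, and all 4 were below 10 CPM in every library.

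Differentiation genes rose alongside the basal ones. Of 31 suprabasal and cornified envelope genes, 24 rose and 2 fell, with a median log2 fold change of 2.75. With K5 tumours 2 to 5, 23 rose and 3 fell. The added fall was Flg2 (log2 fold change -3.185, edgeR adjusted p = 4.24e-05), which was not called with all 5 tumours (edgeR adjusted p = 0.228). Involucrin (Ivl), an early scaffold of the envelope (ENSMUSG00000049128, chr3:92570902-92573735 on GRCm38, minus strand), lay at 1997, 2016, 1031, 1090.3 and 1819 CPM in K5 tumours 1 to 5. Ivl in skin 1 to 4 was at 11.8, 9.94, 15.9 and 16.5 CPM, and the lowest tumour was far above the highest skin (log2 fold change 6.88 ± 0.34 SE, edgeR adjusted p = 8.29e-07). Sprr1b, a small proline-rich protein cross-linked into the envelope under stress, lay at 3979.5, 2079, 2544, 2593 and 2876 CPM in K5 tumours 1 to 5. Sprr1b in skin 1 to 4 was at 55.2, 10.5, 30.3 and 25.6 CPM (log2 fold change 6.53 ± 0.51 SE, edgeR adjusted p = 8.78e-06). Lce3b, a late envelope gene switched on by barrier injury, was listed at 0 in all 4 skins and at 508, 134, 409, 335 and 378 CPM in the tumours. Set against 3 counts in each skin library, its mean level was at least 9752-fold higher (edgeR adjusted p = 9.93e-06). Lce3e rose as well (log2 fold change 9.48 ± 1.52 SE, edgeR adjusted p = 0.000768). Reads of Lce3 and Sprr2 genes can be split among near-identical neighbours, so Sprr2b (at least 863-fold higher) and Sprr2a2 (log2 fold change 9.60 ± 0.59 SE, edgeR adjusted p = 2.26e-06), which overlaps Sprr2a1, are uncertain as single genes.

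The keratins of ordinary differentiation varied between tumours. Krt1, the first suprabasal keratin, lay at 2222, 21637, 8489.5, 2855 and 8679 CPM in K5 tumours 1 to 5. Krt1 in skin 1 to 4 was at 776, 1901, 1212 and 873 CPM. K5 tumour 2 was highest and K5 tumour 1 lowest among the tumours, although all 5 exceeded the skins (log2 fold change 2.88 ± 0.69 SE, edgeR adjusted p = 0.00602). Krt10, its partner, rose with overlapping values (log2 fold change 1.93 ± 0.62 SE, edgeR adjusted p = 0.0235), and the call did not hold when skin 1 or skin 4 was left out (edgeR adjusted p = 0.0597 to 0.0639). The 2 that fell with all 5 tumours were Krt2 (log2 fold change -4.30 ± 0.72 SE, edgeR adjusted p = 0.000639), a late suprabasal keratin below 5 CPM in every library, and Krt77. Krt77 lay at 5.30, 4.4, 6.55, 120.2 and 2.28 CPM in K5 tumours 1 to 5. Krt77 in skin 1 to 4 was at 271, 581, 640.4 and 414 CPM, and K5 tumour 4 was the only tumour above 10 CPM (log2 fold change -4.10 ± 1.22 SE, edgeR adjusted p = 0.0181). Dsc1, a desmosomal cadherin of the upper layers, rose (log2 fold change 3.09 ± 0.22 SE, edgeR adjusted p = 4.88e-06). The mucosal gene Sprr3 separated K5 tumour 1 from the rest, at 0.0178, 5.44, 14.3, 14.1 and 23.1 CPM in the tumours and 0 in every skin, and Krt13, a mucosal keratin, lay at 0.0356, 19.7, 18.4, 17.3 and 16.7 CPM in K5 tumours 1 to 5. Krt13 in skin 1 to 4 was at 0.962, 0.712, 0.473 and 1.16 CPM. K5 tumour 1 was below every skin for Krt13 while the other 4 tumours were above, and the edgeR adjusted p was 0.0137 with it and 8.35e-06 without it.

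All 12 genes of the epidermal lipid barrier rose, with a median log2 fold change of 2.13, and 11 did with K5 tumours 2 to 5. The exception, Elovl4, was also not called when any single library other than skin 2 was left out (edgeR adjusted p = 0.0604 to 0.0929). Abca12, which loads lipid into lamellar granules, lay at 1007, 1203, 924, 691 and 1001 CPM in K5 tumours 1 to 5. Abca12 in skin 1 to 4 was at 130.3, 293, 209.7 and 206 CPM (log2 fold change 2.20 ± 0.24 SE, edgeR adjusted p = 4.18e-05). Asprv1, a protease that trims filaggrin, lay at 7147, 8264, 5196, 3203 and 5677 CPM in K5 tumours 1 to 5. Asprv1 in skin 1 to 4 was at 225, 295, 509 and 670.2 CPM (log2 fold change 3.80 ± 0.40 SE, edgeR adjusted p = 3.48e-05). Cers3, the synthase of very long ceramides (log2 fold change 2.62 ± 0.15 SE, edgeR adjusted p = 1.98e-06), and the acylceramide enzyme Pnpla1 (log2 fold change 2.27 ± 0.13 SE, edgeR adjusted p = 1.83e-06) had smaller standard errors, and the groups did not overlap for 10 of the 12. The sphingomyelinase Smpd1 (log2 fold change 2.34 ± 0.22 SE, edgeR adjusted p = 1.78e-05) rose with them, while Aloxe3, a lipoxygenase of the same pathway, rose less (log2 fold change 1.19 ± 0.29 SE, edgeR adjusted p = 0.00575).

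Proteases of the shedding surface and their inhibitors gave 18 rises and 1 fall among 20 clade B serpins and kallikreins, with a median log2 fold change of 3.44. Klk6 lay at 2297, 1777, 2078, 2101 and 1404 CPM in K5 tumours 1 to 5. Klk6 in skin 1 to 4 was at 13.5, 8.29, 49.1 and 89.9 CPM (log2 fold change 5.59 ± 0.76 SE, edgeR adjusted p = 0.000284). Klk7, which cuts desmosomes in the cornified layer, lay at 4177, 3093, 3706, 2926 and 3165 CPM in K5 tumours 1 to 5. Klk7 in skin 1 to 4 was at 103, 122, 229.9 and 398 CPM (log2 fold change 4.0 ± 0.41 SE, edgeR adjusted p = 3.11e-05). Their inhibitor Spink5 rose by a smaller fold (log2 fold change 2.1 ± 0.37 SE, edgeR adjusted p = 0.000863). Serpinb3a, an inhibitor of cathepsins in stressed squamous epithelium with near-identical copies, lay at 3.42, 158, 146, 80.4 and 269 CPM in K5 tumours 1 to 5. Serpinb3a in skin 1 to 4 was at 0.429, 0, 0.987 and 0.491 CPM, and K5 tumour 1 was far below the other 4 tumours (log2 fold change 8.08 ± 1.43 SE, edgeR adjusted p = 0.00135). The 1 that fell, Serpinb9 (log2 fold change -1.28 ± 0.45 SE, edgeR adjusted p = 0.0312), protects cells from granzyme B, and its call did not hold without K5 tumour 1, 2 or 5 or skin 3 or 4 (edgeR adjusted p = 0.0605 to 0.104). Of 18 desmosome and gap junction genes, 13 rose and 2 fell, with a median log2 fold change of 1.43, and 11 rose with K5 tumours 2 to 5. The connexin Gjb2 lay at 2877, 1892, 2519, 2118 and 3230.2 CPM in K5 tumours 1 to 5. Gjb2 in skin 1 to 4 was at 647, 36.4, 331 and 193 CPM (log2 fold change 3.07 ± 0.68 SE, edgeR adjusted p = 0.00427). Gjb6, its neighbour and partner, rose as well (log2 fold change 4.20 ± 0.46 SE, edgeR adjusted p = 5.95e-05). Dsg2 (log2 fold change -1.44 ± 0.18 SE, edgeR adjusted p = 9.46e-05) and Pkp2 (log2 fold change -1.86 ± 0.32 SE, edgeR adjusted p = 0.000663), desmosome proteins of simple epithelia, hair follicle and heart, were the 2 that fell, and Dsp, the plakin that ties desmosomes to keratin, did not pass the test (3126 to 4126 CPM in tumours, 1723 to 3286 CPM in skins).

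**Figure D2:**
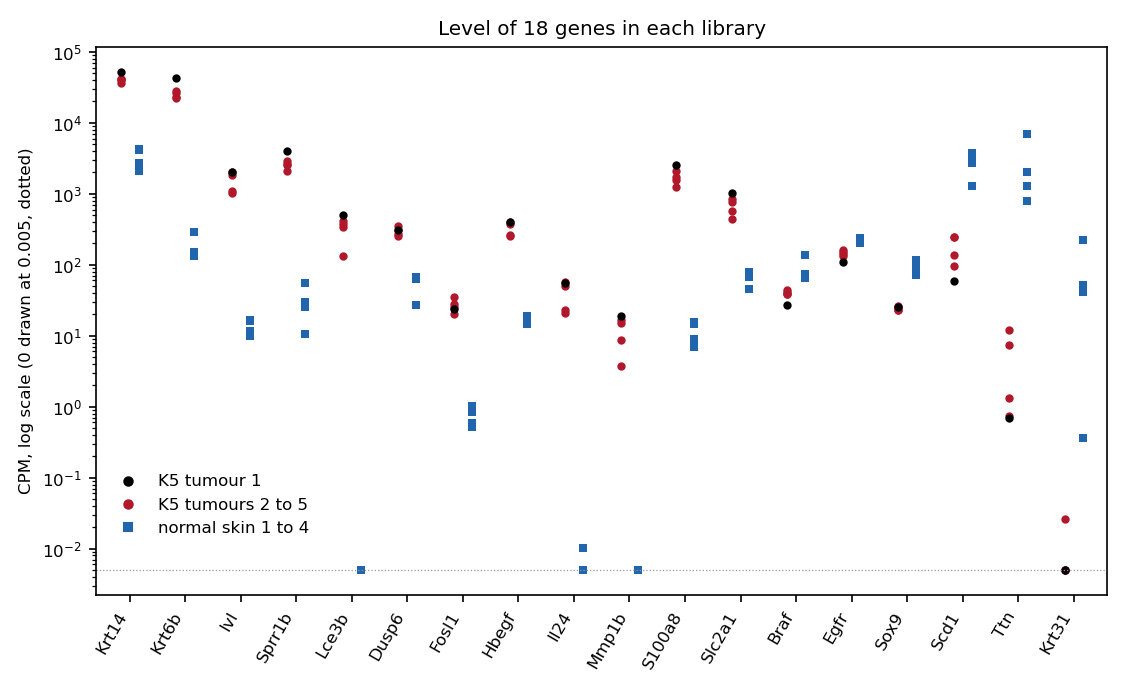
The level of 18 genes in each library (y axis, CPM on a log scale), with circles for the K5 tumours, K5 tumour 1 in black, and squares for the 4 normal skins. Tumours and skins do not overlap for any of the 18, with the smallest gaps for Braf and Egfr.

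Within the cascade that BRAF feeds, 7 of 12 genes rose and 2 fell, with a median log2 fold change of 0.69. Braf itself (ENSMUSG00000002413, chr6:39603237-39725463 on GRCm38, minus strand) lay at 27.0, 38.1, 39.1, 41.7 and 43.4 CPM in K5 tumours 1 to 5. Braf in skin 1 to 4 was at 137, 64.0, 73.4 and 65.4 CPM, so every tumour was below every skin (log2 fold change -1.17 ± 0.24 SE, edgeR adjusted p = 0.00195). The values count mutant and normal transcripts together, and skin 1 was the highest. Its relative Araf (54.7 to 64.0 CPM in tumours, 50.9 to 74.9 CPM in skins) did not pass the test. Hras, which acts upstream of RAF, lay at 212, 241, 236, 219.7 and 202 CPM in K5 tumours 1 to 5. Hras in skin 1 to 4 was at 74.4, 87.1, 86.7 and 69.7 CPM (log2 fold change 1.48 ± 0.11 SE, edgeR adjusted p = 6.71e-06). The kinase BRAF phosphorylates, MEK1 (Map2k1), lay at 159, 134, 151, 152 and 156 CPM in K5 tumours 1 to 5. Map2k1 in skin 1 to 4 was at 36.7, 41.5, 51.1 and 57.1 CPM (log2 fold change 1.69 ± 0.14 SE, edgeR adjusted p = 1.08e-05). Map2k2 (log2 fold change 1.11 ± 0.10 SE, edgeR adjusted p = 1.25e-05), Mapk3 (log2 fold change 1.36 ± 0.19 SE, edgeR adjusted p = 0.000209) and Nras (log2 fold change 0.92 ± 0.12 SE, edgeR adjusted p = 0.000132) rose as well. The other gene that fell was the exchange factor Sos1 (log2 fold change -0.46 ± 0.12 SE, edgeR adjusted p = 0.00889). Ksr1, the scaffold, was not called with 5 tumours but was with K5 tumours 2 to 5 (edgeR adjusted p = 0.00588), K5 tumour 1 lying at 57.5 CPM and the others at 19.7 to 25.7 CPM.

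Of 20 genes that ERK switches on to restrain itself or act through ETS factors, 11 rose and 1 fell, with a median log2 fold change of 0.99. Dusp6, the phosphatase that acts on ERK in the cytoplasm, lay at 306, 355, 251, 268 and 304 CPM in K5 tumours 1 to 5. Dusp6 in skin 1 to 4 was at 67.5, 27.2, 65.7 and 63.5 CPM (log2 fold change 2.41 ± 0.26 SE, edgeR adjusted p = 3.74e-05). Dusp7 lay at 610.0, 483, 523, 534 and 562 CPM in K5 tumours 1 to 5. Dusp7 in skin 1 to 4 was at 97.8, 97.4, 122 and 129 CPM (log2 fold change 2.28 ± 0.14 SE, edgeR adjusted p = 2.02e-06). Phlda1 (log2 fold change 3.41 ± 0.27 SE, edgeR adjusted p = 8.23e-06) and Ier3 (log2 fold change 3.26 ± 0.18 SE, edgeR adjusted p = 1.70e-06), immediate targets of the pathway, rose more than either. Etv1, an ETS factor, was the 1 that fell (log2 fold change -2.22 ± 0.39 SE, edgeR adjusted p = 0.000898), at 1.25, 1.49, 3.24, 2.92 and 2.42 CPM in tumours and 5.34, 7.83, 11.4 and 17.4 CPM in skins, and the phosphatase Dusp2 did not pass the test. Of 11 AP-1 genes, 6 rose and 1 fell, with a median of 1.05. Fosl1 (FRA-1), which ERK stabilises, was close to absent in skin and lay at 24.0, 27.9, 20.2, 25.8 and 35.3 CPM in K5 tumours 1 to 5. Fosl1 in skin 1 to 4 was at 0.83, 1.04, 0.596 and 0.512 CPM (log2 fold change 5.16 ± 0.29 SE, edgeR adjusted p = 1.46e-06). Junb lay at 882, 739.9, 652, 716 and 882 CPM in K5 tumours 1 to 5. Junb in skin 1 to 4 was at 109, 91.8, 134 and 129 CPM (log2 fold change 2.74 ± 0.16 SE, edgeR adjusted p = 2.02e-06). Fos (log2 fold change 2.19 ± 0.49 SE, edgeR adjusted p = 0.00433), Jun (log2 fold change 1.69 ± 0.32 SE, edgeR adjusted p = 0.00137), Jund (log2 fold change 1.05 ± 0.26 SE, edgeR adjusted p = 0.00656) and Maff (log2 fold change 2.77 ± 0.20 SE, edgeR adjusted p = 4.65e-06) rose. Fosl2 (FRA-2) did not pass the test and lay at 183, 198, 200.3, 174 and 246 CPM in K5 tumours 1 to 5. Fosl2 in skin 1 to 4 was at 211, 173, 212 and 207 CPM (edgeR adjusted p = 0.989). The 1 that fell was Batf3 (log2 fold change -1.49 ± 0.47 SE, edgeR adjusted p = 0.0206), whose call did not hold without skin 3 or 4 (edgeR adjusted p = 0.0566 to 0.0662), and Fosb, Atf3 and Batf did not pass.

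AP-1 dimers bind the letters TGANTCA (N any base, the same on both strands), so promoter windows of the raised genes were searched for them, from 250 bases before to 50 after the start RefSeq gives on GRCm38.p6. Of 27018 windows 7.94% hold the letters, of 13678 windows of the protein-coding genes tested 6.24%. They were in 89 of 652 windows (13.7%) of the genes with a large rise and in 84 of 1190 (7.06%) of those with a large fall, in 7 of 13 windows of the metalloproteinase and plasminogen list, and in 6 of 27 of the cornified envelope list. Of the other lists searched, the EGF receptor ligands and receptors held them in 0 of 8 windows, the wound keratins in 0 of 3, the hair follicle list in 0 of 18 and the skeletal muscle list in 1 of 17. Other raised genes hold the letters too, such as Il1a, where they begin 12 bases before the start. The windows of 4 raised genes are shown as examples, for which every tumour lay above every skin and the letters stand before the start. They are printed 5′ to 3′ on the gene's strand with the letters in capitals and the rest in lower case. They begin 73 bases before the start in Mmp1a (chr9:7463891-7464190, plus strand), 93 in Mmp1b (chr9:7387977-7388276, minus strand), 116 in Ivl (chr3:92573686-92573985, minus strand) and 111 in Sprr1b (chr3:92438730-92439029, minus strand). A match describes letters in a window and is not evidence of binding.
Mmp1a: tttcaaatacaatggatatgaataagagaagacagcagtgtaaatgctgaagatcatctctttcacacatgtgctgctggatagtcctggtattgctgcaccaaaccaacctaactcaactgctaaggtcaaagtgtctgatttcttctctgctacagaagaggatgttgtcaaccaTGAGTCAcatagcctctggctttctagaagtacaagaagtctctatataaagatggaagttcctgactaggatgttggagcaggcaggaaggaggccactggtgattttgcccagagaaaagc
Mmp1b: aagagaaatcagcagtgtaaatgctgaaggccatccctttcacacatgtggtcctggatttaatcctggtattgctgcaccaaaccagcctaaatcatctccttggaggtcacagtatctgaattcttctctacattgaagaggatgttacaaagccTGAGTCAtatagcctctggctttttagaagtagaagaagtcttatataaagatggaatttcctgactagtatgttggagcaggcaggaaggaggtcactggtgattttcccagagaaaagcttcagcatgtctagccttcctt
Ivl: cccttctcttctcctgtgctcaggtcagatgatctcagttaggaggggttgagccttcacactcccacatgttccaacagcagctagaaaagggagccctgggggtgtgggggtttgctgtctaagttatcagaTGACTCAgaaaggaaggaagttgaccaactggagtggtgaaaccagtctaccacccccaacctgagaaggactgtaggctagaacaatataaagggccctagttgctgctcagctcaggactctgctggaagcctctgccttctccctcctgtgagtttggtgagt
Sprr1b: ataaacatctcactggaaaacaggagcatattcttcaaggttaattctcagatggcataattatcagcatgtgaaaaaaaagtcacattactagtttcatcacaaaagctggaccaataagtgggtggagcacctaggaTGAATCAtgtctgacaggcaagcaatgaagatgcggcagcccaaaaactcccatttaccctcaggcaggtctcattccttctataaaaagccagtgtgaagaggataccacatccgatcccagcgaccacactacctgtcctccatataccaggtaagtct

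Most ligands of the EGF receptor family rose, whereas the receptors Egfr and Erbb3 fell. Of 12 genes of the family, 7 rose and 3 fell, with a median log2 fold change of 2.44. Hbegf, a membrane-bound ligand shed after wounding, lay at 401, 257, 261, 373 and 405 CPM in K5 tumours 1 to 5. Hbegf in skin 1 to 4 was at 16.4, 14.7, 15.6 and 18.7 CPM (log2 fold change 4.37 ± 0.20 SE, edgeR adjusted p = 8.07e-07). Areg lay at 214, 186, 108, 181 and 309 CPM in K5 tumours 1 to 5. Areg in skin 1 to 4 was at 4.91, 1.76, 5.47 and 2.57 CPM (log2 fold change 5.76 ± 0.46 SE, edgeR adjusted p = 1.17e-05). Epgn lay at 437, 305, 249, 214 and 1096 CPM in K5 tumours 1 to 5. Epgn in skin 1 to 4 was at 10.9, 20.0, 11.4 and 8.33 CPM, with K5 tumour 5 the highest (log2 fold change 5.18 ± 0.61 SE, edgeR adjusted p = 0.000116). Ereg (log2 fold change 3.46 ± 0.49 SE, edgeR adjusted p = 0.000314), Tgfa (log2 fold change 2.92 ± 0.27 SE, edgeR adjusted p = 1.75e-05) and Nrg1 (log2 fold change 3.75 ± 0.32 SE, edgeR adjusted p = 1.11e-05) rose likewise, as did Errfi1, an inhibitor of the receptor induced by its own signal (log2 fold change 1.95 ± 0.30 SE, edgeR adjusted p = 0.000358). Egf, the founding ligand, fell and lay at 0.285, 0.814, 0.828, 0.646 and 0.376 CPM in K5 tumours 1 to 5. Egf in skin 1 to 4 was at 7.15, 17.7, 7.85 and 5.86 CPM (log2 fold change -4.03 ± 0.45 SE, edgeR adjusted p = 4.42e-05). The receptor Egfr lay at 110.0, 143, 151, 132 and 163 CPM in K5 tumours 1 to 5. Egfr in skin 1 to 4 was at 237, 209, 202 and 202 CPM, every tumour below every skin (log2 fold change -0.60 ± 0.13 SE, edgeR adjusted p = 0.00244). Its relative Erbb3 fell (log2 fold change -0.41 ± 0.13 SE, edgeR adjusted p = 0.0234) with a call that did not hold without K5 tumour 2 or 3 or skin 2 or 3 (edgeR adjusted p = 0.0537 to 0.069). Erbb2 and the ligand Btc did not pass the test.

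Il24 had one of the largest differences in the comparison. It (ENSMUSG00000026420, chr1:130882074-130887454 on GRCm38, minus strand) was listed at 56.1, 22.7, 20.7, 49.5 and 56.5 CPM in the tumours and at 0, 0, 0.0103 and 0 CPM in the skins, so that its mean level was at least 1136-fold higher against 3 counts in each skin library (edgeR adjusted p = 1.32e-06). Il24 is a cytokine of the IL-20 subfamily, which signals through STAT3 in keratinocytes. Il20 was at 0 in every skin and between 0.0235 and 0.181 CPM in the tumours, at least 2.84-fold higher (edgeR adjusted p = 0.00332). A receptor chain that both use, Il20ra, fell and lay at 0.569, 0.673, 0.950, 1.94 and 0.563 CPM in K5 tumours 1 to 5. Il20ra in skin 1 to 4 was at 4.77, 19.9, 10.3 and 8.05 CPM (log2 fold change -3.52 ± 0.50 SE, edgeR adjusted p = 0.000227). Il6 lay at 0.907, 0.589, 0.950, 1.68 and 2.04 CPM in K5 tumours 1 to 5. Il6 in skin 1 to 4 was at 0.252, 0.325, 0.278 and 0.278 CPM (log2 fold change 2.12 ± 0.42 SE, edgeR adjusted p = 0.00165). The receptor chains of this cytokine, Il6ra (log2 fold change -1.14 ± 0.25 SE, edgeR adjusted p = 0.00286) and Il6st (log2 fold change -1.09 ± 0.21 SE, edgeR adjusted p = 0.00144) fell. Stat3 lay at 245, 264, 241, 216 and 249.5 CPM in K5 tumours 1 to 5. Stat3 in skin 1 to 4 was at 85.7, 151, 140.4 and 171 CPM (log2 fold change 0.83 ± 0.18 SE, edgeR adjusted p = 0.0029). Pim1, a kinase that STAT3 induces, rose (log2 fold change 1.33 ± 0.15 SE, edgeR adjusted p = 5.83e-05). Over the 16 genes of the list, 11 rose, 3 fell, and the median log2 fold change was 1.18. Among those that rose, the calls of Lif, Osm and Osmr did not hold without skin 1 (edgeR adjusted p = 0.0545 to 0.0778). The call of Osm did not hold without K5 tumour 3, 4 or 5 or skin 2 or 4 either (edgeR adjusted p = 0.0505 to 0.111).

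Among 10 tested genes of the interleukin-1 family, 6 rose and 2 fell, with a median of 1.30. The alarmin Il1a lay at 87.0, 90.2, 63.2, 48.2 and 101 CPM in K5 tumours 1 to 5. Il1a in skin 1 to 4 was at 1.94, 3.72, 3.43 and 4.21 CPM (log2 fold change 4.55 ± 0.31 SE, edgeR adjusted p = 3.71e-06). Il33, an alarmin kept in the nucleus, lay at 201, 90.1, 240.2, 138 and 366 CPM in K5 tumours 1 to 5. Il33 in skin 1 to 4 was at 14.8, 49.2, 27.0 and 23.3 CPM (log2 fold change 2.86 ± 0.48 SE, edgeR adjusted p = 0.000801). Il18 (log2 fold change 2.74 ± 0.35 SE, edgeR adjusted p = 0.00014) and Il1b (log2 fold change 2.86 ± 0.64 SE, edgeR adjusted p = 0.00374) rose, Il1f10 (log2 fold change -1.31 ± 0.38 SE, edgeR adjusted p = 0.0136) and the receptor Il1r1 (log2 fold change -0.30 ± 0.12 SE, edgeR adjusted p = 0.0437) fell, the last with a call that did not hold without K5 tumour 1, 2 or 3 or skin 1, 3 or 4 (edgeR adjusted p = 0.0619 to 0.105), and the decoy receptor Il1r2 did not pass.

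Genes of neutrophils and of the signals that draw them had the highest median of the 41 lists, 4.94, with 16 of 21 raised and 1 lowered. S100a8, a chain of the calprotectin dimer made by neutrophils and by stressed keratinocytes, lay at 2555, 1232, 1561, 1723 and 2111 CPM in K5 tumours 1 to 5. S100a8 in skin 1 to 4 was at 15.8, 6.93, 14.8 and 9.12 CPM (log2 fold change 7.30 ± 0.38 SE, edgeR adjusted p = 1.1e-06). S100a9, its partner, rose with it (log2 fold change 8.43 ± 0.98 SE, edgeR adjusted p = 0.00012). The chemokine Cxcl5 lay at 0.0889, 1.99, 9.04, 17.6 and 3.76 CPM in tumours and 0.0148, 0, 0 and 0 CPM in skins, at least 179.7-fold higher (edgeR adjusted p = 0.000991), with K5 tumour 1 far below the other tumours. Il1f9, which encodes interleukin-36 gamma in keratinocytes, rose (log2 fold change 4.21 ± 0.21 SE, edgeR adjusted p = 8.29e-07). The 1 that fell was Elane, an elastase of immature neutrophils, at or under 3 counts in every tumour and at 0.0296 to 0.352 CPM in the skins, at least 2.17-fold lower (edgeR adjusted p = 0.00924). Of 18 antimicrobial and alarmin genes, 13 rose and 3 fell, with a median of 3.68. Among those that rose, the calls of Chil3, Lcn2, Reg3g and S100a7a did not hold without K5 tumour 4 (edgeR adjusted p = 0.0777 to 0.102). They did not hold without skin 1 either (edgeR adjusted p = 0.0522 to 0.0765). Defb4, a beta-defensin, was at 0 in every skin and at 19.4, 24.9, 63.9, 90.0 and 83.4 CPM in the tumours, at least 1557-fold higher (edgeR adjusted p = 0.000124). Stfa1, a stefin that inhibits cathepsins and has near-identical copies, lay at 2078, 927, 758, 792 and 1181 CPM in K5 tumours 1 to 5. Stfa1 in skin 1 to 4 was at 0.340, 0.362, 0.339 and 0.171 CPM (log2 fold change 11.88 ± 0.52 SE, edgeR adjusted p = 8.00e-07). The protease inhibitor Slpi lay at 142, 1090.3, 1858, 2113 and 1212 CPM in K5 tumours 1 to 5. Slpi in skin 1 to 4 was at 1.69, 0.587, 4.59 and 4.20 CPM, with K5 tumour 1 the lowest tumour (log2 fold change 8.85 ± 1.08 SE, edgeR adjusted p = 0.000166). The 3 that fell were Lyz1 (log2 fold change -4.29 ± 1.26 SE, edgeR adjusted p = 0.0168), Defb6 (log2 fold change -2.88 ± 0.77 SE, edgeR adjusted p = 0.0111) and Camp (log2 fold change -2.66 ± 0.83 SE, edgeR adjusted p = 0.0188).

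Other immune markers did not follow the list of neutrophil genes and signals, which includes genes that keratinocytes also make. Of 18 macrophage and monocyte genes, 4 rose and 1 fell, with a median of -0.24. Arg1, an arginase of wound macrophages that keratinocytes can also make, lay at 497, 852, 1057, 805 and 1617 CPM in K5 tumours 1 to 5. Arg1 in skin 1 to 4 was at 48.4, 76.6, 64.5 and 66.5 CPM (log2 fold change 3.92 ± 0.33 SE, edgeR adjusted p = 1.17e-05). The secreted protein Spp1 (log2 fold change 2.35 ± 0.87 SE, edgeR adjusted p = 0.0422), Nos2 (log2 fold change 1.35 ± 0.49 SE, edgeR adjusted p = 0.0367) and Trem2 (log2 fold change 2.19 ± 0.77 SE, edgeR adjusted p = 0.032) were the other 3. Only Arg1 rose when K5 tumour 3, K5 tumour 4 or skin 1 was left out. Lyz2 (65.0 to 212 CPM in tumours, 28.0 to 565 CPM in skins) and Mrc1 (25.5 to 80 and 24.6 to 253 CPM) did not pass, and Cd163, a marker of resident macrophages, fell (log2 fold change -2.39 ± 0.84 SE, edgeR adjusted p = 0.0359) with a call that did not hold without K5 tumour 1, 2 or 5 or skin 3 or 4 (edgeR adjusted p = 0.0526 to 0.107). The macrophage list summed to 1075 to 1915 CPM in tumours and to 275, 222, 1415 and 1839 CPM in skin 1 to 4, so the skins spread more than the tumours.

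T cell genes summed to 5.16 to 25.0 CPM in tumours and 11.8 to 55.1 CPM in skins, with 6 of 12 lowered and 0 raised (median -1.43), and 3 lowered when K5 tumour 2, K5 tumour 5, skin 3 or skin 4 was left out. Cd3e, a chain of the T cell receptor complex, lay at 0.658, 0.224, 0.853, 0.646 and 0.329 CPM in K5 tumours 1 to 5. Cd3e in skin 1 to 4 was at 1.08, 3.41, 4.47 and 5.16 CPM (log2 fold change -2.69 ± 0.51 SE, edgeR adjusted p = 0.00127). Among 10 mast cell genes, 2 rose and 0 fell with a median of 0.04, Fcer1a (log2 fold change 3.78 ± 1.15 SE, edgeR adjusted p = 0.0182) and Hdc (log2 fold change 2.31 ± 0.60 SE, edgeR adjusted p = 0.00799), while 2 rose and 2 fell with K5 tumours 2 to 5. The mast cell proteases did not pass, with Mcpt4 at 7.56 to 77.2 CPM in tumours and 1.45 to 62.8 CPM in skins. Of 15 interferon-stimulated genes, 4 fell and 0 rose, with a median of -0.98. Besides Ifit3 (log2 fold change -1.23 ± 0.40 SE, edgeR adjusted p = 0.0225) these were Mx1, Mx2 and Usp18. The count was 7 without K5 tumour 1 or skin 1, and 2 without skin 3 or skin 4. Of 14 antigen presentation genes, 4 fell and 1 rose, with a median of -0.91. The transactivator Ciita (log2 fold change -2.03 ± 0.34 SE, edgeR adjusted p = 0.000578), the Langerhans cell lectin Cd207 (log2 fold change -1.78 ± 0.69 SE, edgeR adjusted p = 0.0471), Tap1 and Psmb9 were lower, and Epcam was higher (log2 fold change 0.76 ± 0.19 SE, edgeR adjusted p = 0.00585). That count of 4 became 9 without skin 1, 7 without skin 2 and 2 without skin 3, skin 4 or K5 tumour 2, 3 or 5.

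Matrix-degrading enzymes gave 13 rises and 1 fall among 19 genes, with a median log2 fold change of 2.38. Mmp1a, a collagenase, was at 0 in every skin and at 10.9, 1.15, 4.63, 14.8 and 10.9 CPM in the tumours, at least 234-fold higher (edgeR adjusted p = 0.000308). Mmp1b was likewise at 0 in skin and at 19, 3.7, 8.70, 16.9 and 15.2 CPM in the tumours, at least 351-fold higher (edgeR adjusted p = 3.58e-05). K5 tumour 2 was the lowest tumour for both, the genes are close copies, and Mmp1b overlaps Mmp12 in the annotation. Serpinb2, an inhibitor of plasminogen activators, rose with overlapping values (103 to 1471 CPM in tumours, 65.0 to 167 CPM in skins, edgeR adjusted p = 0.0134). Timp3, an inhibitor of these enzymes bound in matrix, was the 1 that fell and lay at 48.2, 22.4, 27.8, 36.9 and 35.9 CPM in K5 tumours 1 to 5. Timp3 in skin 1 to 4 was at 112, 80.3, 132 and 198 CPM (log2 fold change -1.93 ± 0.28 SE, edgeR adjusted p = 0.000236). The stromal enzymes Mmp14 and Mmp19 and the inhibitor Timp2 did not pass the test, though Mmp14 rose when skin 4 was left out (log2 fold change 1.692, edgeR adjusted p = 0.00384).

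Most stromal genes did not differ beyond the spread, which was wide among the skins. Col1a1, the main fibrillar collagen of dermis, lay at 6513, 3860.2, 1821, 2473 and 3407 CPM in K5 tumours 1 to 5. Col1a1 in skin 1 to 4 was at 1699, 332, 5526 and 6797 CPM, with skin 1 and 2 below every tumour and skin 4 above (log2 fold change 0.01 ± 0.73 SE, edgeR adjusted p = 0.991). Of 20 fibroblast and collagen genes, Fbln1 rose (log2 fold change 1.1 ± 0.32 SE, edgeR adjusted p = 0.0132) and 4 fell, Pi16 (log2 fold change -4.21 ± 1.25 SE, edgeR adjusted p = 0.018), Dcn (log2 fold change -2.35 ± 0.79 SE, edgeR adjusted p = 0.0293), Col14a1 (log2 fold change -2.09 ± 0.62 SE, edgeR adjusted p = 0.0179) and Gsn (log2 fold change -1.17 ± 0.32 SE, edgeR adjusted p = 0.0111), with a median of -0.09. Pi16 and Dcn mark resting dermal fibroblasts. The call of Dcn did not hold without K5 tumour 1, 2 or 5 or skin 3 or 4 (edgeR adjusted p = 0.0585 to 0.092), nor that of Fbln1 without K5 tumour 4 (edgeR adjusted p = 0.0569), nor that of Col14a1 without skin 3 (edgeR adjusted p = 0.0535). Without skin 4, 4 genes rose, and without skin 3, 2 fell. Of 15 tested genes of activated stroma, 5 rose and 2 fell, with a median of 1.04. Tnc (tenascin C), a matrix protein of healing wounds, lay at 389, 519, 523, 694 and 733 CPM in K5 tumours 1 to 5. Tnc in skin 1 to 4 was at 80.8, 9.62, 29.5 and 46.7 CPM (log2 fold change 3.78 ± 0.56 SE, edgeR adjusted p = 0.000426). Col12a1 (log2 fold change 3.84 ± 0.37 SE, edgeR adjusted p = 2.19e-05), Inhba (log2 fold change 2.73 ± 0.53 SE, edgeR adjusted p = 0.00187), Tgfb1 (log2 fold change 1.31 ± 0.36 SE, edgeR adjusted p = 0.0107) and Tgfbi (log2 fold change 1.31 ± 0.50 SE, edgeR adjusted p = 0.0471) rose too. Fap, a protease named for activated fibroblasts, fell and lay at 6.76, 2.16, 2.87, 3.87 and 3.03 CPM in K5 tumours 1 to 5. Fap in skin 1 to 4 was at 18.9, 10.5, 17.2 and 20.3 CPM (log2 fold change -2.16 ± 0.33 SE, edgeR adjusted p = 0.000376). The receptor Il11ra1 fell as well (log2 fold change -1.27 ± 0.28 SE, edgeR adjusted p = 0.00325). The call of Tgfbi did not hold without K5 tumour 1, 2, 3, 4 or 5 or skin 2 or 3 (edgeR adjusted p = 0.0545 to 0.109). Postn, a matrix protein of wound fibroblasts, and Sparc did not pass, and Postn did without skin 4 (edgeR adjusted p = 0.0178).

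Of 14 endothelial genes, 4 rose and 2 fell, with a median of 0.65. The receptor Flt1 (log2 fold change 1.88 ± 0.47 SE, edgeR adjusted p = 0.00722), Emcn (log2 fold change 2.05 ± 0.57 SE, edgeR adjusted p = 0.0118), Tie1 (log2 fold change 1.86 ± 0.49 SE, edgeR adjusted p = 0.00947) and Pdpn (log2 fold change 2.30 ± 0.77 SE, edgeR adjusted p = 0.0303) rose, the last with a call that did not hold without K5 tumour 3 or 4 or skin 1 (edgeR adjusted p = 0.0518 to 0.0777). The receptor Tek (log2 fold change -1.56 ± 0.41 SE, edgeR adjusted p = 0.0086) and the lymphatic factor Prox1 (log2 fold change -1.81 ± 0.42 SE, edgeR adjusted p = 0.00396) fell, and Pecam1 and Vwf, which mark endothelium in general, did not pass the test.

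**Figure D3:**
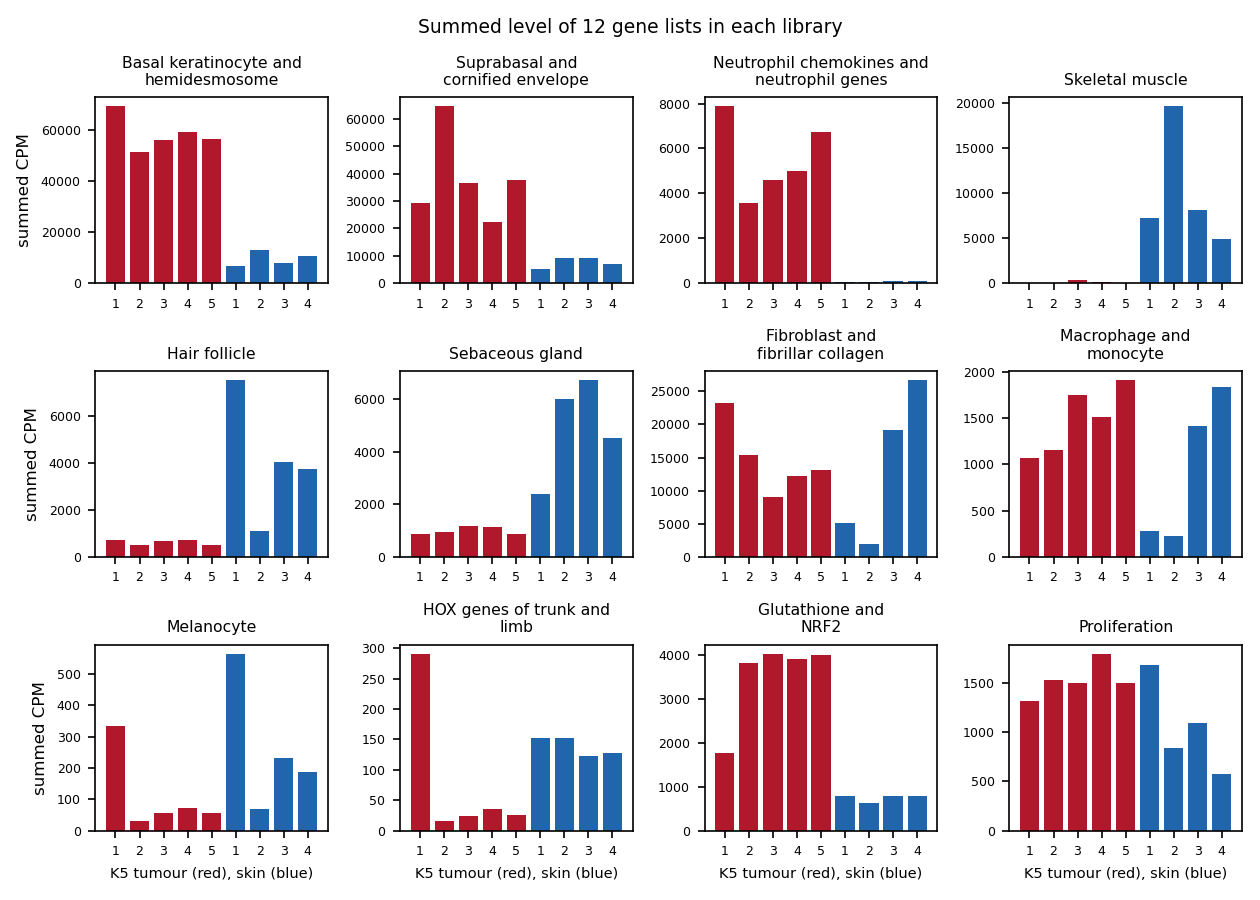
Bars give the summed level of 12 gene lists in each library (y axis, CPM, starting at 0), red for K5 tumours 1 to 5 and blue for skin 1 to 4. Muscle, hair and sebaceous genes are high in skin only, fibroblast and macrophage genes are low in skin 1 and 2, and K5 tumour 1 differs from the other tumours in HOX, melanocyte and glutathione genes.

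Genes of the other tissue elements of whole skin were lower in the tumour libraries. All 22 skeletal muscle genes fell without overlap, with a median log2 fold change of -6.13. Ttn (titin), the giant spring of the sarcomere (ENSMUSG00000051747, chr2:76703980-76982547 on GRCm38, minus strand), lay at 0.694, 1.32, 12.1, 7.31 and 0.728 CPM in K5 tumours 1 to 5. Ttn in skin 1 to 4 was at 2049, 6857, 1271 and 799.7 CPM (log2 fold change -9.28 ± 1.31 SE, edgeR adjusted p = 0.000372). The actin Acta1 lay at 2.76, 0.0842, 28.4, 11.7 and 0.352 CPM in K5 tumours 1 to 5. Acta1 in skin 1 to 4 was at 887, 2156, 1396 and 783 CPM (log2 fold change -7.24 ± 1.45 SE, edgeR adjusted p = 0.00261). The list summed to 28.4 to 311 CPM in the tumours, highest in K5 tumours 3 and 4, and to 4905 to 19630.0 CPM in the skins, highest in skin 2. Of 16 adipocyte genes, 9 fell and 1 rose (median -3.09), with the hormone Lep among the lowered (log2 fold change -4.54 ± 1.16 SE, edgeR adjusted p = 0.00881) and the fatty acid carrier Fabp4, which capillaries also make, not passing. Of 14 sebaceous gland genes, 8 fell and 1 rose (median -2.72). Scd1, a desaturase of sebum lipid, lay at 58.8, 137, 245, 245 and 95.3 CPM in K5 tumours 1 to 5. Scd1 in skin 1 to 4 was at 1295, 3268, 3797 and 2745 CPM (log2 fold change -4.15 ± 0.49 SE, edgeR adjusted p = 8.86e-05). Cidea, a lipid droplet gene in both lists, was the 1 that rose in each (log2 fold change 0.78 ± 0.30 SE, edgeR adjusted p = 0.0459), and its call did not hold without K5 tumour 2, 3, 4 or 5 or skin 1, 3 or 4 (edgeR adjusted p = 0.0591 to 0.1). Of 10 nerve and Schwann cell genes, 8 fell and 0 rose (median -2.06).

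Hair follicle genes fell in 23 of 29, with 0 raised and a median of -4.54. Krt31, a keratin of the hair shaft, lay at 0, 0, 0, 0.0258 and 0 CPM in the tumours and 224, 0.362, 52.3 and 41.3 CPM in the skins, at least 1108-fold lower against 3 counts in each tumour library. Skin 2 had nearly none, and the hair list summed to 1111 CPM there against 3767 to 7545 CPM in the other skins, so skin 1, 3 and 4 carry most of the skin level of these genes. Krt26, Krt35 and Krt72 of the follicle and the keratin-associated protein Krtap11-1 were likewise at or under 3 counts in every tumour, at least 584-, 1495-, 604- and 496-fold lower. Lgr5, a receptor of follicle stem cells, lay at 3.08, 1.85, 5.63, 8.73 and 1.55 CPM in K5 tumours 1 to 5. Lgr5 in skin 1 to 4 was at 46.8, 25.6, 24.4 and 33.5 CPM (log2 fold change -2.97 ± 0.50 SE, edgeR adjusted p = 0.000772). Melanocyte genes depended on 1 tumour. With all 5 tumours 2 of 11 fell, Mitf (log2 fold change -1.90 ± 0.41 SE, edgeR adjusted p = 0.00311) and Sox10 (log2 fold change -2.46 ± 0.28 SE, edgeR adjusted p = 4.84e-05), and with K5 tumours 2 to 5, 9 fell. Dct, a pigment enzyme, lay at 67.9, 3.28, 6.07, 8.42 and 6.06 CPM in K5 tumours 1 to 5. Dct in skin 1 to 4 was at 132, 11, 33.6 and 13.9 CPM (edgeR adjusted p = 0.282 with 5 tumours and 0.0155 with 4). Outside the lists, Mup22, a major urinary protein with near-identical copies, was at 0 in every tumour and at 69.2, 77.0, 208 and 69.5 CPM in the skins, at least 1476-fold lower (edgeR adjusted p = 7.52e-05).

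**Figure D4:**
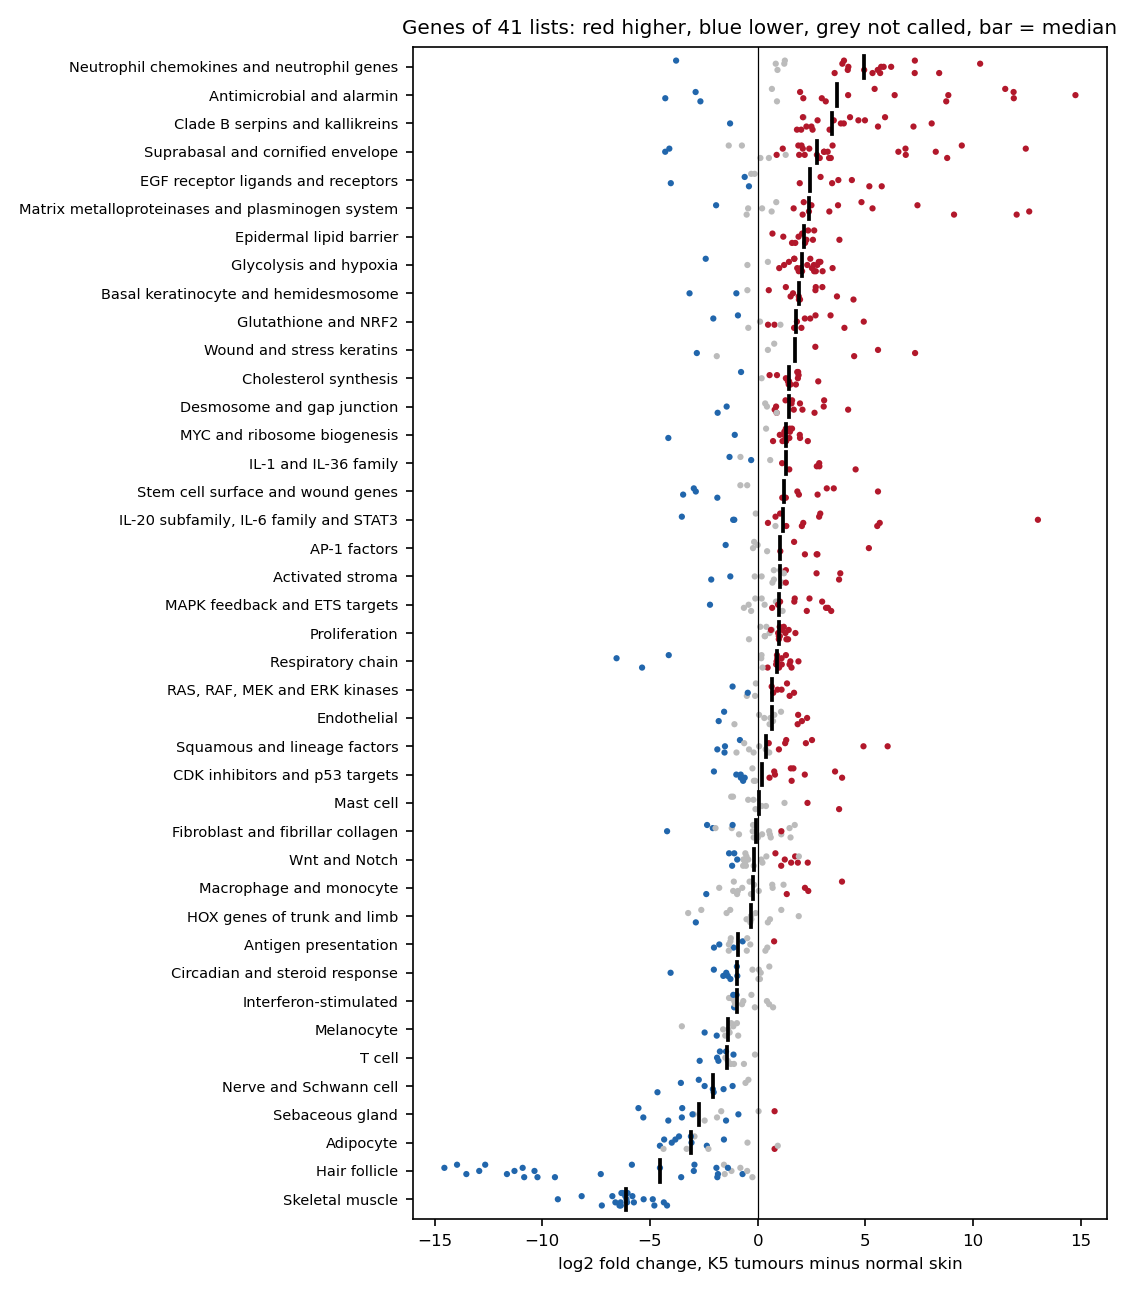
Each point is a gene of 1 of 41 lists, placed by its log2 fold change between K5 tumours and normal skin (x axis) and coloured by the edgeR call at an adjusted p under 0.05, with a bar at the list's median. Neutrophil and antimicrobial genes lie highest, with medians of 4.94 and 3.68, and hair follicle and skeletal muscle genes lowest, with medians of -4.54 and -6.13.

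Metabolic genes rose as groups. Of 23 gene entries for glycolysis and the hypoxia response, 20 rose and 1 fell, with a median log2 fold change of 2.06. The glucose transporter Slc2a1 lay at 1018, 438, 755, 834 and 570.2 CPM in K5 tumours 1 to 5. Slc2a1 in skin 1 to 4 was at 45.7, 78.0, 67.8 and 68.0 CPM (log2 fold change 3.48 ± 0.27 SE, edgeR adjusted p = 7.66e-06). Pyruvate kinase (Pkm), the last step of glycolysis, lay at 3800.5, 3369, 3502, 3518 and 3493 CPM in K5 tumours 1 to 5. Pkm in skin 1 to 4 was at 544, 725, 673 and 660.1 CPM (log2 fold change 2.44 ± 0.13 SE, edgeR adjusted p = 1.29e-06). Eno1 (log2 fold change 2.83 ± 0.16 SE, edgeR adjusted p = 1.83e-06), the lactate exporter Slc16a3 (log2 fold change 3.01 ± 0.32 SE, edgeR adjusted p = 3.77e-05), lactate dehydrogenase Ldha (log2 fold change 1.95 ± 0.15 SE, edgeR adjusted p = 6.30e-06) and Hif1a, the oxygen-regulated factor (log2 fold change 1.91 ± 0.16 SE, edgeR adjusted p = 1.09e-05), rose too. The entry that fell was the second of 2 gene IDs that share the symbol Aldoa, below 5 CPM in every library. Respiratory chain genes gave 16 rises and 3 falls among 22 (median 0.90), and the 3, Cox6a2 (log2 fold change -6.55 ± 0.90 SE, edgeR adjusted p = 0.000284), Cox8b (log2 fold change -5.37 ± 1.27 SE, edgeR adjusted p = 0.00609) and Cox7a1 (log2 fold change -4.13 ± 0.64 SE, edgeR adjusted p = 0.000377), are the subunits of muscle.

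Of 16 cholesterol synthesis genes, 14 rose and 1 fell (median 1.47). Sqle, which commits squalene to sterol, lay at 275, 415, 436, 361 and 346 CPM in K5 tumours 1 to 5. Sqle in skin 1 to 4 was at 102, 119.8, 96.2 and 74.6 CPM (log2 fold change 1.90 ± 0.18 SE, edgeR adjusted p = 1.81e-05). Of 16 genes of glutathione and the NRF2 response, 11 rose and 2 fell (median 1.76). Gsta4, a glutathione transferase for lipid aldehydes, lay at 385, 1096, 1645, 1881 and 1412 CPM in K5 tumours 1 to 5. Gsta4 in skin 1 to 4 was at 29.6, 47.4, 48.9 and 43.0 CPM, with K5 tumour 1 between the skins and the other tumours (log2 fold change 4.93 ± 0.46 SE, edgeR adjusted p = 2.1e-05). Gstm1 (log2 fold change -2.06 ± 0.47 SE, edgeR adjusted p = 0.00484) and Gclc (log2 fold change -0.92 ± 0.27 SE, edgeR adjusted p = 0.0148) were the 2 that fell.

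Growth genes rose, while Mki67, the commonest marker of cycling cells, did not pass the test. Of 20 genes of MYC and ribosome biogenesis, 17 rose and 2 fell (median 1.30). Myc lay at 80.8, 116, 93.2, 77.4 and 86.7 CPM in K5 tumours 1 to 5. Myc in skin 1 to 4 was at 46.1, 41.9, 37.8 and 38 CPM (log2 fold change 1.15 ± 0.14 SE, edgeR adjusted p = 7.84e-05). Its relative Mycn, used in hair matrix, lay at 0.178, 0.729, 0.974, 1.01 and 1.36 CPM in K5 tumours 1 to 5. Mycn in skin 1 to 4 was at 37.3, 3.1, 15.5 and 4.29 CPM (log2 fold change -4.15 ± 0.82 SE, edgeR adjusted p = 0.00203). Mycn and Mycl (log2 fold change -1.07 ± 0.31 SE, edgeR adjusted p = 0.0149) were the 2 that fell. Npm1, a nucleolar chaperone, lay at 748, 1020.3, 925, 919 and 1097 CPM in K5 tumours 1 to 5. Npm1 in skin 1 to 4 was at 407, 318, 314 and 304 CPM (log2 fold change 1.49 ± 0.15 SE, edgeR adjusted p = 2.56e-05).

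Of 20 proliferation genes, 13 rose and 0 fell (median 0.98). Birc5 (survivin) lay at 50.2, 36.8, 34.0, 47.3 and 28.2 CPM in K5 tumours 1 to 5. Birc5 in skin 1 to 4 was at 20.1, 8.88, 11.8 and 5.87 CPM (log2 fold change 1.75 ± 0.33 SE, edgeR adjusted p = 0.00137). Pcna (log2 fold change 1.02 ± 0.13 SE, edgeR adjusted p = 9.45e-05) and Ube2c (log2 fold change 1.44 ± 0.28 SE, edgeR adjusted p = 0.0014) rose. Mki67 lay at 193, 262, 239.9, 298 and 304 CPM in K5 tumours 1 to 5. Mki67 in skin 1 to 4 was at 595, 279, 352 and 147 CPM, and skin 1, whose hair follicle genes also summed highest, was the highest of the 9 libraries (log2 fold change -0.40 ± 0.33 SE, edgeR adjusted p = 0.299). Without skin 4 it was lower in the tumours (edgeR adjusted p = 0.0424). The part of hair follicle cells in these values was not tested. CDK inhibitors and p53 targets moved in both directions, with 9 of 18 genes higher and 6 lower (median 0.22). Cdkn1a (p21) lay at 343, 323, 338, 345 and 379.8 CPM in K5 tumours 1 to 5. Cdkn1a in skin 1 to 4 was at 114, 106, 120.5 and 123 CPM (log2 fold change 1.58 ± 0.10 SE, edgeR adjusted p = 3.05e-06). Cdkn2a, which encodes p16 and p19ARF and marks oncogene stress, lay at 8.89, 8.81, 8.36, 6.95 and 6.13 CPM in K5 tumours 1 to 5. Cdkn2a in skin 1 to 4 was at 0.83, 0, 0.71 and 1.05 CPM (log2 fold change 3.59 ± 0.85 SE, edgeR adjusted p = 0.0052). Trp53inp1, a p53 target, fell and lay at 15.4, 18.0, 19.7, 25.4 and 23.0 CPM in K5 tumours 1 to 5. Trp53inp1 in skin 1 to 4 was at 69.9, 73.4, 81.4 and 107 CPM (log2 fold change -2.03 ± 0.18 SE, edgeR adjusted p = 1.25e-05). Pmaip1, another such target, rose (log2 fold change 3.92 ± 0.24 SE, edgeR adjusted p = 2.26e-06).

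Lineage and stem cell genes split. Of 19 squamous and lineage factors, 8 rose and 4 fell (median 0.37). Hmga2, a chromatin protein of embryonic tissue that adult skin hardly uses, lay at 98.7, 35.9, 48.7, 91.1 and 100.04 CPM in K5 tumours 1 to 5. Hmga2 in skin 1 to 4 was at 0.977, 0.736, 0.905 and 1.93 CPM (log2 fold change 6.03 ± 0.47 SE, edgeR adjusted p = 9.45e-06). Pitx1, a homeobox factor of limb and oral epithelium, lay at 7.04, 66.0, 97.3, 62.1 and 69.9 CPM in K5 tumours 1 to 5. Pitx1 in skin 1 to 4 was at 1.39, 3.4, 2.08 and 1.15 CPM, with K5 tumour 1 nearer to the skins than to the other tumours (log2 fold change 4.91 ± 0.74 SE, edgeR adjusted p = 0.000554). Klf4, a factor of the granular layer, lay at 427, 756, 743, 687 and 823 CPM in K5 tumours 1 to 5. Klf4 in skin 1 to 4 was at 182, 278, 343 and 294 CPM (log2 fold change 1.32 ± 0.23 SE, edgeR adjusted p = 0.000696). Sox9, a factor of follicle stem cells, lay at 25.4, 23.1, 23.3, 25.6 and 25.9 CPM in K5 tumours 1 to 5. Sox9 in skin 1 to 4 was at 80.2, 92.0, 71.8 and 118 CPM, with the tumours close to each other (log2 fold change -1.87 ± 0.14 SE, edgeR adjusted p = 6.57e-06). Zeb2 (log2 fold change -1.54 ± 0.34 SE, edgeR adjusted p = 0.0033), Zeb1 (log2 fold change -0.82 ± 0.30 SE, edgeR adjusted p = 0.0387) and the cadherin Cdh2 (log2 fold change -1.52 ± 0.32 SE, edgeR adjusted p = 0.00258) also fell, Zeb1 with a call that did not hold without K5 tumour 2, 3, 4 or 5 or skin 2, 3 or 4 (edgeR adjusted p = 0.0558 to 0.103), epithelial Cdh1 rose (log2 fold change 0.99 ± 0.17 SE, edgeR adjusted p = 0.000661), and Sox2 (0.142 to 1.6 CPM in tumours, 0.801 to 1.88 CPM in skins) and Vim did not pass the test.

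Of 14 stem cell surface and wound genes, 8 rose and 4 fell (median 1.22). Anxa1, a lipid-binding protein of wounded epithelium, lay at 827, 1768, 2523, 2789 and 2947 CPM in K5 tumours 1 to 5. Anxa1 in skin 1 to 4 was at 395, 623, 669.8 and 733 CPM (log2 fold change 1.84 ± 0.35 SE, edgeR adjusted p = 0.00141). Ly6a (Sca-1), a surface marker of the upper follicle, lay at 192, 324, 287, 249.8 and 339.9 CPM in K5 tumours 1 to 5. Ly6a in skin 1 to 4 was at 47.6, 78.2, 170.0 and 209 CPM, with skin 4 above K5 tumour 1 (log2 fold change 1.14 ± 0.40 SE, edgeR adjusted p = 0.0316), and its call did not hold without K5 tumour 2, 3, 4 or 5 or skin 2 (edgeR adjusted p = 0.0552 to 0.0808). Lgr6, a receptor of follicle and gland stem cells, lay at 13, 4.83, 4.36, 5.97 and 2.61 CPM in K5 tumours 1 to 5. Lgr6 in skin 1 to 4 was at 43.8, 80, 33.3 and 23.7 CPM (log2 fold change -2.87 ± 0.49 SE, edgeR adjusted p = 0.000902). Cd34, a marker of the follicle bulge and of endothelium, did not pass (64.4 to 94.9 CPM in tumours, 60.4 to 232 CPM in skins). Of 23 Wnt and Notch genes, 7 rose and 4 fell (median -0.18). Notch1, which drives keratinocyte differentiation, lay at 121, 113, 110.5, 117 and 116 CPM in K5 tumours 1 to 5. Notch1 in skin 1 to 4 was at 467, 233, 257 and 203 CPM (log2 fold change -1.33 ± 0.22 SE, edgeR adjusted p = 0.000507). Its paralogue Notch2 (log2 fold change -1.19 ± 0.14 SE, edgeR adjusted p = 7.22e-05), the Wnt target Axin2 (log2 fold change -1.09 ± 0.22 SE, edgeR adjusted p = 0.00208) and the Wnt inhibitor Sfrp1 (log2 fold change -0.95 ± 0.34 SE, edgeR adjusted p = 0.0347) fell too, the last with a call that did not hold without K5 tumour 1 or 2 or skin 1, 3 or 4 (edgeR adjusted p = 0.0518 to 0.103), while Wnt3a rose (log2 fold change 2.32 ± 0.30 SE, edgeR adjusted p = 0.000119).

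Among 15 HOX genes of trunk and limb the count turned on K5 tumour 1. With 5 tumours 1 fell, Hoxc9 (log2 fold change -2.87 ± 0.94 SE, edgeR adjusted p = 0.0246), which was not called without K5 tumour 3 or skin 4 (edgeR adjusted p = 0.052 to 0.0604), and 0 rose, with a median of -0.31, and with K5 tumours 2 to 5, 11 fell and 0 rose, with a median of -4.88. Hoxc8, which marks the position of trunk skin, lay at 22.1, 0.112, 0.487, 0.904 and 2.53 CPM in K5 tumours 1 to 5. Hoxc8 in skin 1 to 4 was at 21, 19.9, 40.3 and 48.2 CPM, so that K5 tumour 1 reached the skin range and the other 4 did not (edgeR adjusted p = 0.0924 with 5 tumours and 0.00139 with 4). Of 14 circadian and steroid response genes, 8 fell and 0 rose (median -0.96). Zbtb16, a factor induced by glucocorticoids, lay at 2.29, 1.49, 1.58, 2.69 and 0.352 CPM in K5 tumours 1 to 5. Zbtb16 in skin 1 to 4 was at 15.2, 32.7, 29.7 and 33.6 CPM (log2 fold change -4.04 ± 0.49 SE, edgeR adjusted p = 9.14e-05). Dbp, an output gene of the clock, fell (log2 fold change -2.04 ± 0.38 SE, edgeR adjusted p = 0.00128) and Arntl, the clock activator, did not pass. The hour at which each sample was taken was not given in the sources used here.

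By the rule of size, the raised genes outside the groups above included Prl8a9 and Nmu. Prl8a9, a prolactin family hormone of placenta, was at 0 in every skin and at 43.2, 0.0281, 12.4, 63.0 and 1.78 CPM in the tumours, at least 666-fold higher, although K5 tumour 2 was at the level of 1 count (edgeR adjusted p = 0.0121). Nmu (neuromedin U), a peptide that acts on nerves and immune cells, lay at 1.35, 22.4, 12.8, 4.86 and 8.66 CPM in the tumours and 0.0148, 0.0125, 0 and 0 CPM in the skins, at least 276-fold higher (edgeR adjusted p = 5.59e-05). By adjusted p, the raised genes named included Rpl23a, a protein of the large ribosomal subunit (log2 fold change 5.15 ± 0.20 SE, edgeR adjusted p = 4.45e-07), the TWEAK receptor Tnfrsf12a (log2 fold change 2.99 ± 0.13 SE, edgeR adjusted p = 5.85e-07), the kinase activator Cdk5r1 (log2 fold change 2.93 ± 0.12 SE, edgeR adjusted p = 5.85e-07) and the cell surface protein Lypd3 (log2 fold change 3.45 ± 0.15 SE, edgeR adjusted p = 8.00e-07). Rpl23a has many processed copies in the genome, and its counts are uncertain for that reason. The lowered ones included Trim2 (log2 fold change -2.12 ± 0.10 SE, edgeR adjusted p = 8.07e-07), Sntb1 (log2 fold change -2.90 ± 0.15 SE, edgeR adjusted p = 1.07e-06), the small heat shock protein Hspb6 (log2 fold change -3.11 ± 0.19 SE, edgeR adjusted p = 2.35e-06) and the channel subunit Scn4b (log2 fold change -4.62 ± 0.29 SE, edgeR adjusted p = 2.36e-06), the last a gene of muscle and nerve.

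The direction of calls differed by gene type. Of 13790 genes that are not protein-coding, 7484 (54.3%) passed, 1288 (9.34%) higher and 6196 (44.9%) lower. They took 1.93% ± 0.179 of the counts in the K5 tumours (SD, n = 5) and 5.40% ± 1.39 in skin (SD, n = 4), a difference at the smallest p that the 126 splits of an exact two-sided permutation test allow (p = 0.00794), and 1.87% ± 0.133 without K5 tumour 1 (SD, n = 4, exact permutation p = 0.0286, the smallest for 70 splits). Of 884 small nuclear, nucleolar and other short structural RNAs, 513 (58.0%) fell and 13 rose. Of 60 replication-dependent histone genes, whose transcripts lack a poly(A) tail, 36 fell and 0 rose, although 13 of the 20 proliferation genes rose. Malat1, a nuclear RNA, lay at 939, 805, 888, 760.0 and 1316 CPM in K5 tumours 1 to 5. Malat1 in skin 1 to 4 was at 8538, 10491, 5237 and 5529 CPM (log2 fold change -2.98 ± 0.25 SE, edgeR adjusted p = 1.05e-05). Of 282 transcripts annotated inside introns 75.9% fell, and of 3556 processed pseudogenes 20.5% rose and 29.6% fell. RNAs without a poly(A) tail thus moved with the comparison, and their part in the results for other genes was not tested.

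**Figure D5:**
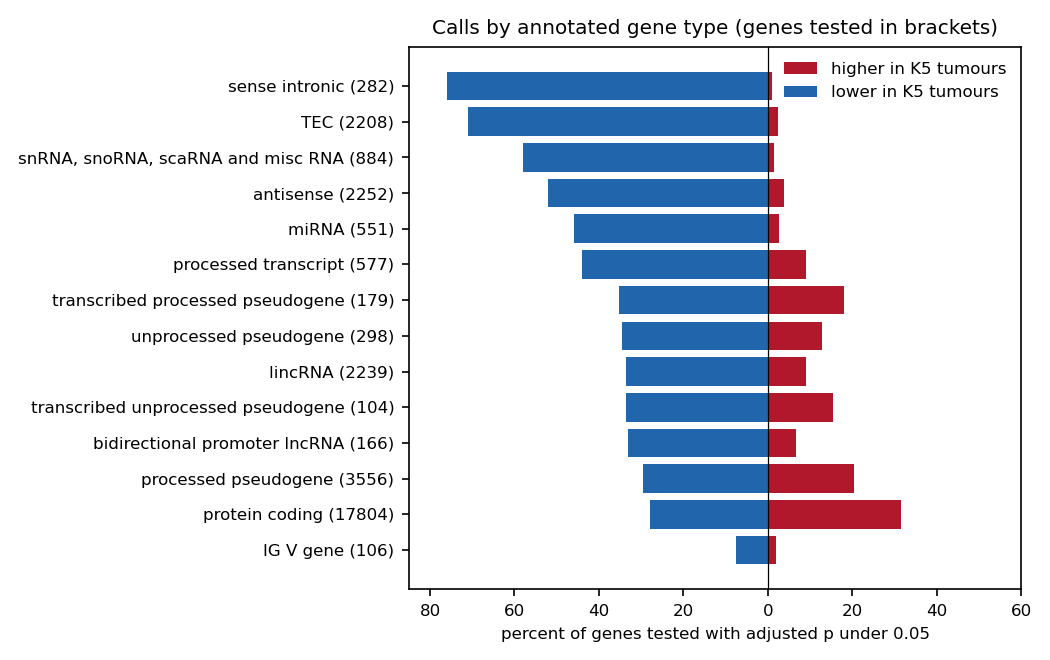
Bars give the percent of genes of each annotated type with an edgeR adjusted p under 0.05, higher in K5 tumours to the right in red and lower to the left in blue, for types with at least 100 genes tested. Protein-coding genes are near balance at 31.4% and 27.9% with the histone genes set apart, while sense intronic transcripts (75.9% lower) and small nuclear and related RNAs (58.0% lower) lie almost wholly to the left.

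Gene length moved with the fold change too. Among protein-coding genes with a mean of at least 1 CPM, the median log2 fold change was 0.57 in the shortest of 4 equal groups by genomic span (median 5248 bases), then 0.31 and 0.14, and -0.30 in the longest (median 106180 bases). By exon length the medians were 0.64, 0.37, 0.10 and -0.25, and the percent lowered was 16.7 in the shortest group and 39.2 in the longest. The part of length in the differences of single genes was not tested.

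The tumours of K14 and Ivl origin were set against the same skins, so their levels are given beside those of the K5 tumours without a test, in CPM with TMM factors over all 19 libraries. Krt14 lay at 33080.2 to 46567 CPM in the 5 K5, 32943 to 51085 CPM in the 4 K14 and 5639 to 45642 CPM in the 6 Ivl tumours. Dusp6 lay at 233 to 320.1 CPM in K5, 43.9 to 139.5 CPM in K14 and 65.2 to 124 CPM in Ivl tumours. Areg lay at 100.4 to 284 CPM in K5, 13.6 to 70.1 CPM in K14 and 7.45 to 104 CPM in Ivl tumours. The K5 values of Dusp6 and Areg lay above all K14 values, and those of Krt14 overlapped them. The Ivl gene lay at 956 to 1819 CPM in K5, 362 to 865 CPM in K14 and 81.4 to 569 CPM in Ivl tumours. Il24 lay at 19.1 to 52.0 CPM in K5, 2.60 to 18.9 CPM in K14 and 0.384 to 22.3 CPM in Ivl tumours. The K5 values of the Ivl gene and of Il24 lay above all K14 values too. In its own test the study found no gene to differ between K5 and K14 tumours, and it merged them. The muscle gene Ttn lay at 0.620 to 11.2 CPM in K5, 0.407 to 71.8 CPM in K14 and 0.415 to 2269 CPM in Ivl tumours, the last reaching the skin range of 731 to 6174 CPM.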

How the data were processed

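Bulk RNA-seq of 5 K5 tumours and 4 normal skins was used. The authors trimmed reads with Trim Galore, aligned them to GRCm38 with HISAT2 2.1.0, counted genes with featureCounts of Subread 1.6.3 and, per the methods, adjusted for batch with ComBat-seq. The deposited values are whole numbers and were taken as the estimated counts that this adjustment gives. The smaller batch held 4 libraries, the size of the skin group, of the K14 group and of K5 tumour 1 with Ivl tumours 1 to 3. Which library belonged to which batch, and the strand setting, were not given in the sources used here. Without a known strand setting, overlapping and antisense genes cannot be told apart. Of 34807 genes, 34694 were matched to the GENCODE M21 annotation for gene type.

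A gene was tested if any of the 9 libraries held 5 or more counts of it, with edgeR 4.0.16 (R 4.3.3, TMM, robust quasi-likelihood F test, two-sided, Benjamini-Hochberg over all genes tested, adjusted p under 0.05). SE is the absolute log2 fold change divided by the root of F. CPM uses TMM-scaled library sizes. Where every library of a group held 3 counts or fewer, the fold was computed against 3 counts in each library and is a lower bound. No 2 libraries agreed within sampling noise (chi-square per degree of freedom 48.1 to 370.0). Precision rests on 45715309 to 72609771 counts a library, and intervals between libraries cover these samples only.

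Named genes were the 15 largest and the 8 most significant per direction among called protein-coding genes with no overlap, a mean of at least 5 CPM and the same call with K5 tumours 2 to 5, the most abundant and most changed members of 41 lists, every member of lists under 13 genes, and genes the study names. Members named only to complete a count of 5 or fewer were chosen after their values were seen. So were Camp, Cox7a1, Axin2, Sfrp1, Il1r1, Tap1, Chil3, Lcn2, Reg3g, S100a7a, Lif, Osm, Osmr, Flg2 and Plec. The members and lists were chosen with earlier results of these data known. Alternatives were DESeq2 1.42.0, its size factors, all 19 libraries, 2 other filters, a table of protein-coding genes, a replicate block, and each library left out. Promoter windows are from RefSeq on GRCm38.p6. Values of a few genes that entered the fits and the counts of lists are not reported here.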

Additional observations from a re-analysis of the deposited data

Results flagged for a closer look

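A library was singled out where its gap to the nearest library of its group, divided by the group's range, exceeded Dixon's 95% critical value for the 5 tumours or the 4 skins. Of 247 groups of values, 29 (11.7%) did so. The rule gives about 1 in 20 for normally distributed values that were not selected. These genes were partly chosen by their values, and the values share libraries, so they are not independent and the count is not compared with that rate. Il24 and Cxcl5 in skin and Krt31 in tumours were flagged for a value near 0 against 0 elsewhere.

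K5 tumour 1 was the highest tumour for Krt14 (gap over range 0.726), Krt6b (0.727), the pigment gene Dct (0.921) and Hoxc8 (0.89), and for the summed levels of the antimicrobial genes (0.852), the melanocyte genes (0.865), the interferon-stimulated genes (0.766) and the HOX genes (0.931). It was the lowest for Krt13 (0.847) and for the summed glutathione and NRF2 genes (0.909). The interferon-stimulated genes summed to 96.3 CPM in it and to 41.4 to 54.2 CPM in the other tumours. K5 tumour 4 was the highest for Krt77 (0.964), Il20ra (0.718) and Krt31 (1), the last at 0.0258 CPM against 0 elsewhere. K5 tumour 5 was the highest for Epgn (0.747) and the lowest for the summed antigen presentation genes (0.827).

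Skin 1 was the highest skin for Braf (0.871), Npm1 (0.87) and Cxcl5 (1). Skin 2 was the lowest for Dusp6 (0.9), Fosl2 (0.878) and the summed glutathione and NRF2 genes (0.961), and the highest for Egf (0.832) and the summed cholesterol genes (0.873). Skin 3 was the highest for Il24 (1), at 0.0103 CPM, and for Mup22 (0.944). Skin 4 was the highest for Krt6b (0.864), Krt16 (0.903) and the summed wound keratins (0.917), and the lowest for Stfa1 (0.881). None of these libraries is marked as different in the labels used here.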

How the results depend on the processing

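The count of protein-coding genes called, 10592, ranged from 8736 to 11086 over the alternatives. It was 9313 with the replicate number as a replicate block and 9574 to 10748 with single libraries left out. The 18076 calls over all genes fell to 10140 with a mean of at least 1 CPM required, were 15152 with the replicate block, and ranged from 16272 to 18467 with single libraries left out. The 2578 large differences fell to 1662 with that filter, which tests fewer genes, were 2011 with the replicate block and ranged from 2213 to 2572 with single libraries left out. With K5 tumours 2 to 5, 10748 calls became 10776 to 11451 under other tools and samples. The share of calls that were higher was 52.7% with TMM, 48.4% with DESeq2's size factors and 47.7% with protein-coding genes alone in the table, where the median log2 fold change of protein-coding genes moved from -0.0633 to -0.141 and -0.171.

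The replicate numbers were not taken as pairs, since the correlations of same-numbered deviations were 0.103, 0.0504, 0.129 and 0.182, although each of the 4 K5 tumours with a matching number correlated best with its own. Of 5562 values of 349 named genes under the alternatives, 5360 kept their side of the threshold. That count does not require values that were not called to keep their direction. Hoxa9 turned from a log2 fold change of 1.91, not called, to a called -3.96 without K5 tumour 1, with a range of -3.96 to 2.95 over single libraries left out. With the replicate block the log2 fold change of Hoxa9 was -1.449. Of 1312 list counts, 1195 stayed within 1.5 times, and the cause of the other shifts was not tested. No fit over all genes exists for the protein-coding table.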
